A study of Homo sapiens with 2 samples.

Results

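ATP-binding cassette (ABC) transporters and organic anion transporting polypeptides (the SLCO genes) were examined as a set of 58 genes, of 23352 in the deposited gene tables. Members were chosen by symbol alone, as every gene named ABCA to ABCG or SLCO followed by its number or number-letter code in both tables; 46 were ABC genes and 12 were SLCO genes. TAP1, TAP2 and CFTR are ABC proteins under other symbols and were set beside the members, not among them.

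ABC proteins share a pair of nucleotide-binding folds that hydrolyse ATP. Most use it to move lipids, peptides, porphyrins, conjugated metabolites or drugs across a membrane, usually out of the cytosol, while ABCE1 and the ABCF proteins lack membrane spans and act on ribosomes. SLCO proteins need no ATP and mostly carry large organic anions into cells, among them conjugated steroids, thyroid hormones, prostaglandins, bile salts and statins. Several members of both families are known for setting how much of a drug stays inside a tumour cell or a hepatocyte.

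The data came from A673, an established human Ewing sarcoma line that carries the EWS/FLI1 fusion. Both groups were A673 cells transduced, in 6 µg/mL polybrene, with lentivirus collected from HEK 293T cells after 72 h and then selected in 0.4 µg/mL puromycin for 6 days. They differed in the hairpin, which was the RUNX3 hairpin sh813 or a non-target hairpin, and each group was sequenced as 1 library of poly(A) RNA from transduced cells whose title calls them a pool. The titles and the shRNA characteristics contradict each other for both libraries, so the libraries are named here by title, 813 and NT; exchanging them would turn every direction given below. RUNX3, the targeted gene, had 387 pairs in the 813-titled library and 1391 in the NT-titled library, a log2 fold of -1.92 (95% interval -2.09 to -1.76), which goes with the titles. With 1 library per group no difference has a replicate check, no test was run, and differences between cultures cannot be told apart from differences between hairpins.

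Gene counts came to 23342660 and 24326135 read pairs in the 813- and NT-titled libraries. All 10 Ewing sarcoma markers were measured in both, with a summed level of 6595 and 5934 CPM (CPM being pairs scaled to the TMM-adjusted library size). CD99 and CCND1 made up most of that sum, and single markers differed in both directions: NKX2-2 had 102 and 275 CPM and NR0B1 123 and 266, while JAKMIP2 had 7.85 and 2.67 and HOXD10 41.4 and 18.05. All 7 hepatocyte markers lay under 1 CPM, 5 of them at 0 pairs in both libraries. Markers of HEK293 (7 genes, 8.71 and 12.7 CPM summed, LHX1 at 0 in both), leukocytes (5 genes, 2.70 and 2.15 CPM, CD3E at 0) and endothelium (4 genes, 3.56 and 1.68 CPM) were low in sum. Single ones differed here too: KDR had 2.13 and 0.215 CPM and CDH5 0.082 and 0.345. GATA3 had 1.35 and 4.01 CPM and NEFM 4.29 and 3.23. SLCO2B1 and ABCA4, described below, lay at similar levels, 2.66 and 2.04 CPM in the 813-titled library. The 6 fibroblast markers summed to 2798 and 2390 CPM, nearly all from COL1A1 and COL1A2, while PDGFRA and FAP were under 1 CPM. The part of any other cell type in the differences below was not tested.

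The repertoire of these transporters in A673 was partial. Of 58 members, 43 had at least 1 pair, and 15 had none in either library, where 3 pairs would have made 0.123 and 0.129 CPM; over all genes the share without a pair was 23.1%, against 25.9% of the members. Another 14 members had pairs but stayed under 1 CPM in both libraries. The remaining 29 were measured, meaning 1 CPM or more in at least 1 library, as were 52.5% of all genes.

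The members without a pair included the classical drug efflux pumps ABCB1 (P-glycoprotein) and ABCG2 (the breast cancer resistance protein). The bile salt pump ABCB11, the sterol pair ABCG5 and ABCG8, the skin lipid transporter ABCA12 and the sulfonylurea receptor ABCC8 were likewise at 0. So were ABCC11, ABCC12, the pseudogene ABCC13, the peroxisomal ABCD2, SLCO6A1 and the chromosome 12 neighbours SLCO1B1, SLCO1B3 and SLCO1B7, the first 2 of which are the main hepatocyte uptake carriers. A count of 0 means not detectable at this depth.

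Levels between genes were compared on the deposited RPKM, which is scaled to gene length. The 5 most abundant members held 63.6% of the summed RPKM of all members in the 813-titled library and 62.2% in the NT-titled library. ABCF1, a translation initiation factor partner, stood at 54.2 and 53.5 RPKM, and ABCF2 at 50.7 and 48.4. SLCO4A1, a carrier of thyroid hormone and other anions, had 61.2 and 32.1 RPKM. It was the most abundant member in the 813-titled library and stood below ABCF1, ABCF2 and ABCB6 in the NT-titled library. ABCB6, a porphyrin transporter, had 27.98 and 38.4 RPKM, and ABCF3 26.4 and 30.7. The most abundant members were thus 3 ABC proteins of the ribosome, 1 uptake carrier and 1 porphyrin transporter.

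**Figure D1:**
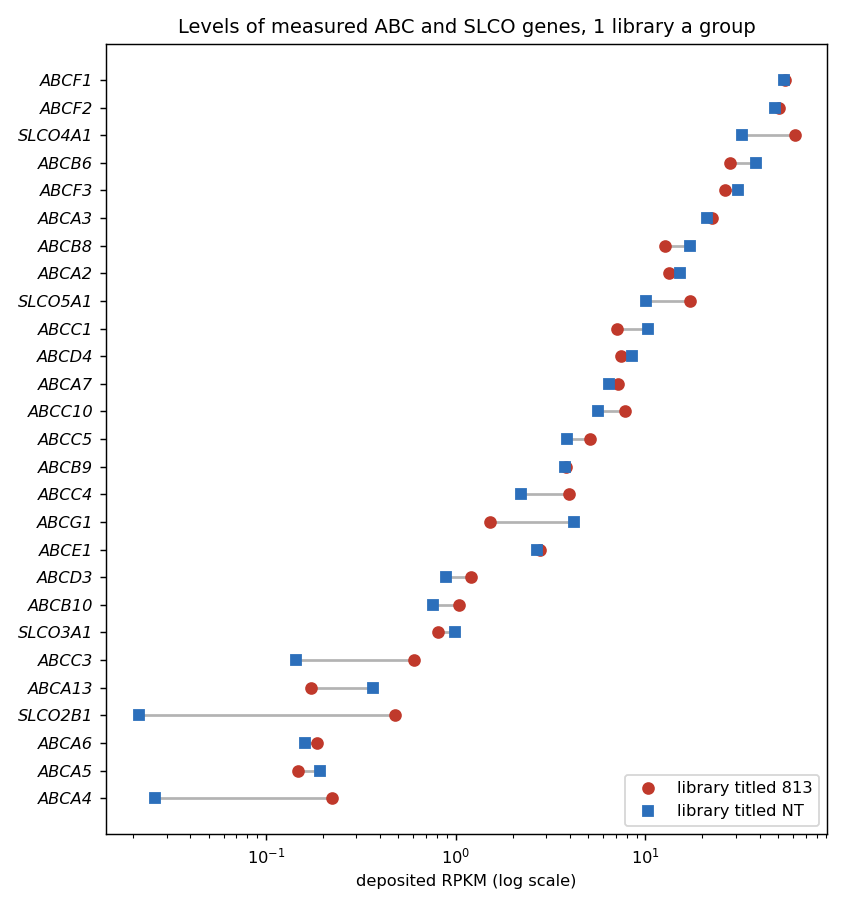
Deposited RPKM on a log axis for 27 of the 29 measured ABC and SLCO genes, ordered by mean level; circles are the 813-titled library and squares the NT-titled library, with a line joining the values of a gene. Most joined pairs lie close together, and the widest gaps are those of SLCO2B1, ABCA4, ABCC3, ABCG1 and ABCA13. SLCO4A1, ABCC4 and SLCO5A1 come next, with gaps close to each other.

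A gene was called where the difference was 2-fold or more and its exact 95% counting interval lay wholly beyond 1.5-fold. By this rule 3 of 29 members were higher in the 813-titled library, SLCO2B1, ABCA4 and ABCC3, and 2 were lower, ABCG1 and ABCA13. Over all 12254 measured genes 8.13% were called higher and 3.48% lower, against 10.3% and 6.90% of the members, which is close to those shares for so few genes. In bulk RNA, fewer cells of a type and less RNA per cell cannot be told apart. The median log2 fold of the members was -0.08, beside 0.01 for all measured genes, and the median size of the difference regardless of sign was 0.35 beside 0.39. Of the 29, 12 lay above 0 and 17 below; plain total counts move every log2 fold up by 0.14 and put 18 above 0. The signs that turn include those of ABCA3, ABCB9, ABCE1, ABCF1 and ABCF2. The 3 higher genes were all scarce, under 5 CPM in both libraries. SLCO2B1 and ABCA4 reached 1 CPM only in the 813-titled library, so they counted as measured through the library where they were higher.

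**Figure D2:**
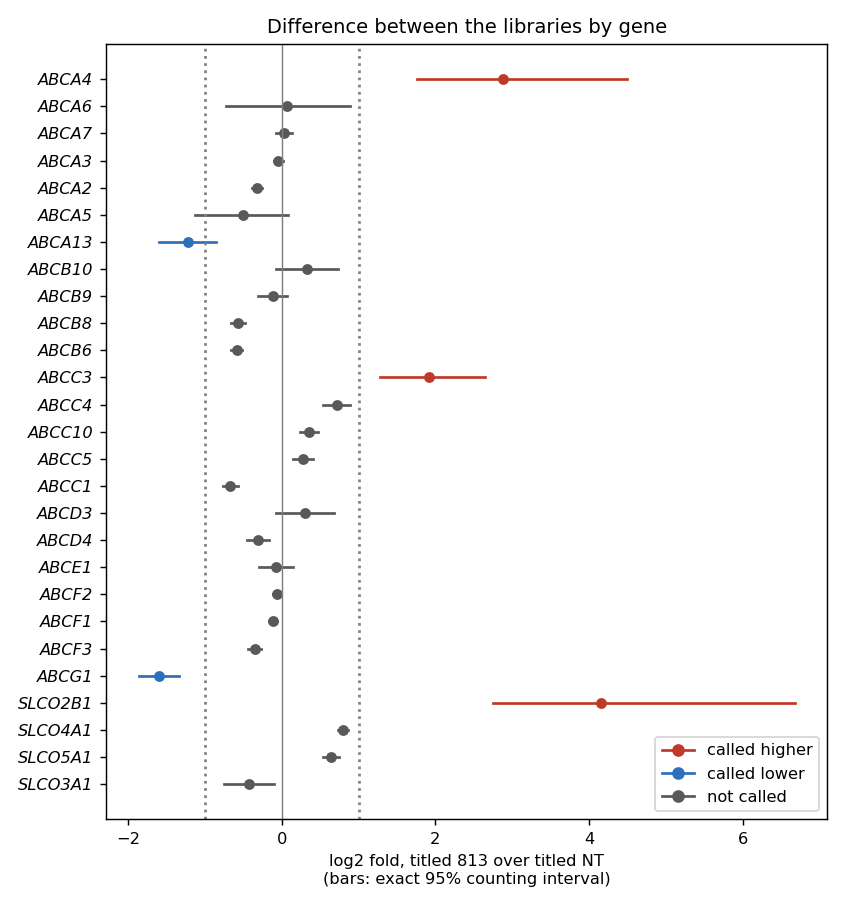
Log2 fold of the 813-titled library over the NT-titled library for 27 of the 29 measured members, grouped by family, with bars for the exact 95% counting interval and dotted lines at 2-fold. SLCO2B1, ABCA4 and ABCC3 lie beyond the line on the higher side, ABCG1 and ABCA13 on the lower side, and the points of the other 22 lie between the lines.

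SLCO2B1 encodes OATP2B1, a widely expressed carrier of sulfated steroids and statins (chr11:74862032-74917445 in hg19, plus strand). It had 65 pairs in the 813-titled library and 3 in the NT-titled library, or 2.66 and 0.129 CPM. This made a log2 fold of 4.15 (2.75 to 6.68), or 17.8-fold higher in the 813-titled library and the widest gap of any measured member. The library titled NT lay at the count of 3 pairs that serves as the floor, so the interval is wide, though wholly above 0. All 15 exon records of the gene had reads in the 813-titled library, from 2 to 61. In the NT-titled library 3 records had reads, 4 in the 3' record and 2 and 1 in the internal records chr11:74899181-74899283 and chr11:74904263-74904620.

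The 5'-most record (chr11:74862032-74862442 in hg19, 411 bases) had 13 reads in the 813-titled library and 0 in the NT-titled library, and the next record (chr11:74870844-74870949) 2 and 0. RefSeq lists 2 starts for SLCO2B1. In GENCODE transcript ENST00000289575.9 the upstream start lies 120 bases from the 5' end of the first exon. That exon has 411 bases, the length of the 5'-most record. No record had the length of a first exon at the downstream start. By the spacing of the 2 starts, however, the downstream start falls within the next record (chr11:74870844-74870949), if that spacing is the same in hg19. The 250 bases before each start are shown because SLCO2B1 had the largest difference; they lie on the plus strand at chr11:75150857-75151106 and chr11:75159582-75159831 in GRCh38.p14, and capitals mark the 40 bases next to the start.
SLCO2B1 upstream start: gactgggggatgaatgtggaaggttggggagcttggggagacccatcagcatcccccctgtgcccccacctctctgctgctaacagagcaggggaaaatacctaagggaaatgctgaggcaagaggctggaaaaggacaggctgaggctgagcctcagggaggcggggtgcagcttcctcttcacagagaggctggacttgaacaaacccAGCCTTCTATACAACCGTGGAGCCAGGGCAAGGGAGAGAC
SLCO2B1 downstream start: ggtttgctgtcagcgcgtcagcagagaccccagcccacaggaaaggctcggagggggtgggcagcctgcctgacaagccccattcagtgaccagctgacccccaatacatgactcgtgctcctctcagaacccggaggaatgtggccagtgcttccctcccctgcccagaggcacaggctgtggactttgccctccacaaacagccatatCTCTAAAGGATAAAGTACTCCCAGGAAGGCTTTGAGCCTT

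The other SLCO genes with a measurable level were SLCO4A1, SLCO5A1 and SLCO3A1. SLCO4A1 (chr20:61273797-61303647) had 5168 and 2816 pairs, 211 and 121 CPM. The log2 fold, 0.80 (0.73 to 0.87), did not reach 2-fold. Every one of its 12 exon records was higher in the 813-titled library. Exon records come from the same libraries as the gene count, so here and below they are no separate check of it. Once a fitted GC and length trend was taken out, its log2 fold was 1.12 (1.05 to 1.19), which passed the rule. Its exons overlap those of LOC100127888, and without a stated strand setting reads of the overlap cannot be assigned. SLCO5A1, a carrier with few known substrates (chr8:70584568-70747299), had 85.6 and 54.8 CPM and a log2 fold of 0.64 (0.54 to 0.75), with all 11 records higher. The same trend correction brought it down to 0.25 (0.15 to 0.35). SLCO3A1, which carries prostaglandins, went the other way at 5.76 and 7.75 CPM (-0.43, -0.76 to -0.10). None of these 3 was called.

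The SLCO genes under 1 CPM had too few pairs to compare. The brain thyroxine carrier SLCO1C1 had 6 and 1 pairs, SLCO1A2 had 1 and 0, the prostaglandin carrier SLCO2A1 had 0 and 1, and the kidney carrier SLCO4C1 had 1 and 1. SLCO1A2, SLCO2A1 and SLCO4C1 lay at or under 3 pairs in both libraries. Summed over all 12 genes, SLCO transcripts made up 23.0% of the members' RPKM in the 813-titled library and 13.2% in the NT-titled library, nearly all of it SLCO4A1 and SLCO5A1.

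The ABCA proteins are large lipid transporters, and 7 of 12 were measured. ABCA4, the retinoid flippase of photoreceptors (chr1:94458394-94586705, minus strand), had 50 and 6 pairs, 2.04 and 0.258 CPM. Its log2 fold was 2.88 (1.76 to 4.50), 7.37-fold higher in the 813-titled library. Reads fell in 38 of its 50 exon records in the 813-titled library and in 7 in the NT-titled library, and 37 of the 40 records with reads were higher in the former. The reads were thus spread along the gene and did not come from 1 exon.

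ABCA13, the longest member (chr7:48211057-48687091, plus strand), had 90 and 200 pairs, 3.68 and 8.62 CPM. The log2 fold, -1.22 (-1.60 to -0.86), corresponds to 2.33-fold less in the 813-titled library. All 62 exon records had reads in at least 1 library, and 50 of them were lower in the 813-titled library after scaling. The call ended where the interval was required to lie beyond 2-fold in place of 1.5-fold. With the GC and length trend removed the log2 fold was -1.71 (-2.09 to -1.35). The 250 bases before its RefSeq start (chr7:48171208-48171457 in GRCh38.p14, plus strand) are shown as the lower counterpart of SLCO2B1, again with the 40 bases next to the start in capitals.
ABCA13: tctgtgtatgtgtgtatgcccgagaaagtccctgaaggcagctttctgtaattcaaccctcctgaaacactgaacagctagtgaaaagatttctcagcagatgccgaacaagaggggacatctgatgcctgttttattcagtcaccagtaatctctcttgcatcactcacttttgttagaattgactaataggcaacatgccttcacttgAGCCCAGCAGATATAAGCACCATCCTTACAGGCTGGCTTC

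The abundant ABCA genes differed little. ABCA3, which loads phospholipid into lamellar bodies, had 184 and 189.8 CPM (log2 fold -0.05, -0.11 to 0.02). ABCA7 had 60.9 and 59.6 CPM (0.03, -0.08 to 0.14). The lysosomal ABCA2 had 139 and 173 CPM (-0.32, -0.39 to -0.25), or -0.16 (-0.23 to -0.10) with the GC and length trend removed. The neighbours ABCA5, ABCA6, ABCA8, ABCA9 and ABCA10 form a cluster on chromosome 17 and were all scarce. They had 42, 30, 9, 13 and 4 pairs in the 813-titled library and 57, 27, 6, 6 and 2 in the NT-titled library, and the interval of each log2 fold included 0. ABCA5 and ABCA10 overlap in their exon records. ABCA1, which passes cholesterol to apolipoprotein A-I, had 19 and 9 pairs, under 1 CPM in both libraries.

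Of the 5 ABCG genes, 1 was measured, ABCG1. ABCG1 moves cholesterol towards high-density lipoprotein (chr21:43619799-43717354, plus strand). It had 166 and 478 pairs, 6.79 and 20.6 CPM. The log2 fold was -1.60 (-1.86 to -1.34), or 3.03-fold lower in the 813-titled library. Of its 22 exon records 20 had reads and 17 of these were lower. The 3 that were higher were the 3 most 5' records, with 2, 2 and 4 reads against 0, 0 and 2, while every record from chr21:43639267-43639414 on was lower, up to 108 and 326 reads in the 3' record. Its relative ABCG4 had 17 and 10 pairs and was not measured.

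**Figure D3:**
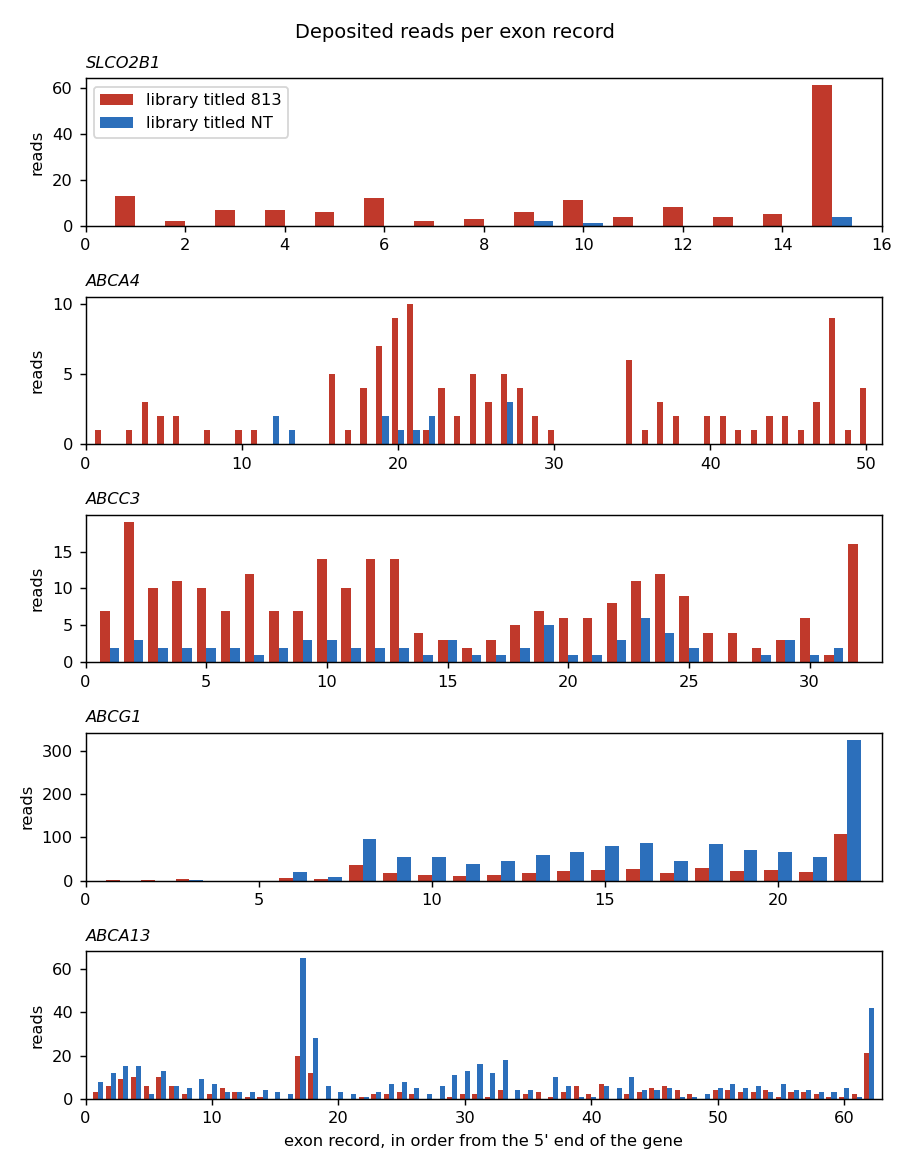
Deposited reads per exon record for the 5 called members, with records in order from the 5' end of the gene along the horizontal axis and bars for the 813-titled library and the NT-titled library. For SLCO2B1, ABCA4 and ABCC3 the red bars of the 813-titled library stand above in most records, and for ABCG1 and ABCA13 the blue bars of the NT-titled library do.

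The ABCC proteins export conjugated anions, and 5 of 12 were measured. ABCC3, an exporter of glucuronides and bile salts (chr17:48712218-48769063, plus strand), had 97 and 24 pairs, 3.97 and 1.03 CPM. Its log2 fold was 1.92 (1.28 to 2.65), 3.78-fold higher in the 813-titled library, and 29 of 32 exon records were higher. ABCC2, its counterpart in the hepatocyte canaliculus, was counted 8 times in the 813-titled library and 0 times in the NT-titled library. Taking 3 pairs for the latter, the ratio was 2.53, with no allowance for counting error. The lower bound of the log2 interval was 0.70, and the gene stayed under 1 CPM.

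The more abundant ABCC genes lay within 2-fold and in both directions. ABCC4, which exports cyclic nucleotides and prostaglandins, had 30.8 and 18.8 CPM (log2 fold 0.71, 0.54 to 0.89), and 31 of its 32 exon records were higher in the 813-titled library. With the GC and length trend removed its log2 fold was 0.23 (0.06 to 0.41). ABCC10 had 53.2 and 41.6 CPM (0.35, 0.23 to 0.48), with exons that overlap those of DLK2. The cyclic nucleotide exporter ABCC5 had 44.8 and 36.9 CPM (0.28, 0.15 to 0.41). ABCC1, the exporter of glutathione conjugates and leukotriene C4 that is known for drug resistance, had 57.97 and 92.4 CPM (-0.67, -0.77 to -0.57). Of its 31 records 30 were lower, and the log2 fold was -0.64 (-0.74 to -0.54) with the trend removed. ABCC1 and ABCC3, exporters with overlapping substrates, therefore differed in opposite directions, the first within 2-fold. ABCC6, with 7 and 3 pairs, and the channel subunit ABCC9, with 6 and 5, were not measured.

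The ABCB genes with a measurable level were intracellular transporters, and none was called. ABCB6 had 105 and 158 CPM (log2 fold -0.59, -0.66 to -0.51), and all 19 exon records were lower in the 813-titled library. ABCB8 of the mitochondrial inner membrane had 73.9 and 109 CPM (-0.57, -0.66 to -0.48), with all 16 records lower. With the GC and length trend removed, ABCB6 was at -0.31 (-0.39 to -0.24) and ABCB8 at -0.37 (-0.46 to -0.28). ABCB9, a lysosomal peptide transporter, had 18.5 and 20.1 CPM (-0.12, -0.31 to 0.07), and the mitochondrial ABCB10 5.03 and 4.01 CPM (0.33, -0.07 to 0.73). ABCB5 and the phosphatidylcholine transporter ABCB4 had 14 and 1 pairs against 20 and 2.

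Among the ABCD genes, ABCD4, which works in lysosomal cobalamin export, had 29.4 and 36.5 CPM (log2 fold -0.31, -0.46 to -0.17). ABCD3 had 5.68 and 4.61 CPM (0.30, -0.07 to 0.68). ABCE1, the ribosome recycling factor, had 357 pairs in each library (-0.08, -0.29 to 0.14), with exons that overlap those of ANAPC10. ABCF1, ABCF2 and ABCF3 had log2 folds of -0.11 (-0.16 to -0.06), -0.06 (-0.11 to -0.01) and -0.35 (-0.43 to -0.27). That of ABCF3 was -0.10 (-0.18 to -0.01) with the GC and length trend removed. None of these 6 members was called.

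Exon records that differed from the rest of their gene were about as rare among the members as over all genes. Of 441 records with at least 50 reads in members with at least 200, 2 differed 2-fold or more with intervals that did not overlap, which is 0.454% beside 0.424% of 92738 records over all genes. In ABCD3 the 3' record chr1:94982608-94984219 (hg19) had 87 and 101 reads, a log2 fold of -0.29 (-0.91 to 0.32), while the other records of the gene gave 0.80 (0.40 to 1.21). In ABCA2 a record of 3 bases (chr9:139917510-139917512) had 23 and 61 reads, -1.44 (-2.60 to -0.46), against -0.32 for the rest of the gene. The next record of ABCA2, chr9:139917393-139917504, lies only a few bases away and had 113 and 144 reads. Whether the 3 bases are a separate exon was not tested.

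Promoter windows were searched for the RUNX core motif because RUNX3 was the target. The letters searched were TGTGGT and TGCGGT on both strands, in RefSeq windows of 300 bases (250 before and 50 after each start, GRCh38.p14). Of 41 members with a window, which had 62 windows in all, 7 held a match in 7 windows (11.3%), beside 19.6% of 35093 windows over all genes. None of the 7 was called, and the windows of SLCO2B1 and ABCA13 held no match. ABCA4, ABCC3 and ABCG1 had no window in the table. The matches of the 4 measured members are shown with their surroundings, the motif in capitals, at chr9:137029070-137029099 (ABCA2, minus strand), chr12:122974591-122974620 (ABCB9, minus), chr14:74302984-74303013 (ABCD4, minus) and chr3:184185949-184185972 (ABCF3, plus). The other 3 were ABCB1, ABCG2 and ABCC12, which had 0 pairs in both libraries.
ABCA2: ctgacactggacACCACAcagcgctactcc
ABCB9: gggcgtggtctcACCGCAgccaacaaatga
ABCD4: aaacgccgtctcTGTGGTagccggggcccc
ABCF3: gcgagaACCGCAcatgtggctaat

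Genes that work with these transporters were described from 9 lists. Of 121 genes, 92 were measured, 5 were higher and 1 was lower in the 813-titled library, beside 8.13% higher and 3.48% lower over all measured genes. Their median log2 fold was -0.11, beside 0.01 for all genes. Of 20 iron-sulfur and heme genes, which work beside mitochondrial and porphyrin ABCB transporters, all 20 were measured and 2 were higher, the heme synthesis enzyme CPOX (12.3 and 4.35 CPM, log2 interval 1.17 to 1.84) and the transferrin receptor TFRC (79.2 and 35.5 CPM, 1.16, 1.04 to 1.28). The list median was -0.20.

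Prostaglandin and glutathione genes held other called members. Of 7 measured prostaglandin genes 1 was higher, the receptor PTGER4, with 58 and 11 pairs (log2 fold 2.27, 1.38 to 3.40). PTGER4 reached 1 CPM only in the 813-titled library. Of 12 xenobiotic sensor and glutathione genes 1 was higher, GCLC, the catalytic subunit of glutathione synthesis (7.24 and 2.89 CPM, 1.32, 0.91 to 1.75). With the GC and length trend removed GCLC and TFRC were no longer called.

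Among 10 measured carriers of drugs, bile acids and organic ions 1 was higher, SLC10A7 (89 and 34 pairs, log2 fold 1.30, 0.73 to 1.93), and the list median was -0.24. KCNJ11, a pore of the ATP-sensitive potassium channel that pairs with ABCC8 or ABCC9, was lower with 17 and 51 pairs (-1.63, -2.55 to -0.84); ABCC8 was at 0 and ABCC9 under 1 CPM. KCNJ11 reached 1 CPM only in the NT-titled library. Its call ended at a 5 CPM minimum, with the interval beyond 2-fold and with that trend removed. No gene was called among 14 measured sterol genes (median -0.11), although ABCG1 was; the sterol sensors NR1H2 and NR1H3, which are known to activate ABCA1 and ABCG1, had log2 folds of -0.62 and -0.17. None was called among 14 peroxisome and cobalamin genes (median -0.22) or 11 ribosome recycling and initiation genes (median -0.02). The ABC peptide transporters TAP1 and TAP2 had log2 folds of 0.26 and 0.50, and CFTR had 0 pairs.

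**Figure D4:**
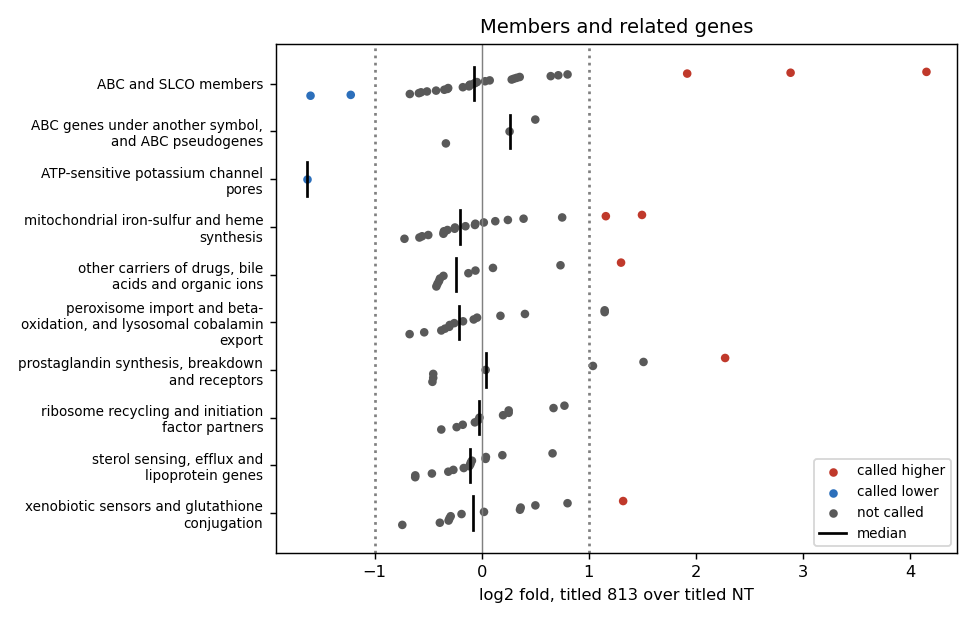
Log2 fold of the 813-titled library over the NT-titled library for each measured gene of the ABC and SLCO set and of the 9 related lists, with a black bar at each median and dotted lines at 2-fold; vertical offsets within a row only separate the points. List medians lie between -0.24 and 0.26 except for the channel pores, a row with 1 gene.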

How the data were processed

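The members and related gene lists were chosen with earlier results of these data known. Each library has gene and exon tables that hold raw counts and RPKM, as deposited by the authors, per the file headers. CASAVA 1.9, TopHat2 2.0.6, HTSeq and build hg19 are named in the submitters' processing notes; which annotation, strand option or filter was applied is not given in the sources used here. The deposited gene RPKM corresponds to division by length and by totals of 60848394 and 63156235 reads.

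All gene counts were even, so they were divided by 2 and called pairs; exon reads are as deposited, divided by 2 for folds. Of 23398 rows, 46 repeats were dropped. TMM factors over all genes were 1.05 and 0.954 (edgeR 4.0.16, R 4.3.3). Log2 folds used a prior of 0.5 pairs. Intervals are exact 95% conditional binomial (Clopper-Pearson, scipy 1.17.1) and cover counting error only, not the spread between cultures. Reads lack molecular identifiers, so duplicates were not told apart and the intervals can be too narrow. Exon records and strands were ordered with GENCODE release 29. Exon records were counted as higher or lower on reads scaled to the TMM-adjusted library size, by which records with equal reads count as lower. Near-identical transcripts of other gene names were sought with blastn. With such a transcript 4 of 58 members (ABCB6, ABCF2, SLCO1B3 and SLCO1B7) shared 50% or more of their longest transcript at 97% identity. None of the 5 called members did. Whether such a transcript lies at another place or overlaps the member in the genome was not checked. All members enter the counts, but values of 2 measured members are not reported here; related genes are named where called; NR1H2, NR1H3, TAP1, TAP2 and CFTR were named outside that rule, after their values were seen. Alternatives covered scaling, including DESeq2 1.42.0 size factors, the minimum level, the call rule, the pairing of reads, a GC and length trend, and exon sums.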

Additional observations from a re-analysis of the deposited data

How the results depend on the processing

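No paired analysis was possible because each group has 1 library. With 1 library per group, no alternative shows the spread between cultures. The calls of SLCO2B1, ABCA4, ABCC3 and ABCG1 were made under plain total counts, DESeq2 size factors, deposited RPKM, the 20 most abundant genes left out, undivided counts, the GC and length trend removed and exon sums, and so was that of ABCA13. With a minimum of 5 CPM 0 members were called higher, because the 3 lie under it, and the companion calls were 3 higher and 0 lower. With the interval wholly beyond 2-fold 1 member, ABCG1, was called lower, and 3 companion genes were higher and 0 lower. Companion genes called higher were 9 with no demand on the interval and 8 with counts not divided by 2; with the trend removed 0 were called lower. Higher calls over all genes made up 70.0% of calls with TMM and 81.5% with plain totals. The GC and length trend took up 15.7% of the variance of log2 folds over 11022 measured genes. With it removed, 673 genes were called higher and 280 lower over all genes, against 996 and 427. With no minimum level ABCC2 joined the higher members, and with the trend removed SLCO4A1 did, while the signs of uncalled genes that turned there include those of ABCA3, ABCA6, ABCB9 and ABCB10. The lowest counts limit SLCO2B1 and ABCA4, with 3 and 6 pairs in the NT-titled library.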

Other observations

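Some low gene counts came from few exon records. All 17 and 14 reads of ABCC9 in the 813- and NT-titled libraries lay in its 3' record (chr12:21950324-21954115 in hg19, 3792 bases), 1 of 39 records. ABCB5 had reads in 3 of 31 records, with 22 and 19 of its 26 and 29 reads in 1 record of 1329 bases (chr7:20698689-20700017). The few ABCC2 reads of the 813-titled library were spread over 14 of 32 records. SLCO1C1 had 18 and 3 reads, all in 5 of the 18 records, within the first 6 from its 5' end. ABCC13, at 0 pairs in the gene tables, had 1 exon read in each library.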
